A study of Mus musculus with 28 samples.

Results

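Cytosolic ribosomal protein genes were followed in mouse kidney. They were found by symbol, as names starting with Rpl or Rps and a digit, together with Rplp0, Rplp1, Rplp2 and Rpsa. Of 99 rows with such symbols, 10 encoded the Rps6k kinases and 5 were pseudogenes or not protein coding. The 84 genes left, of 14845 rows in all, comprised 50 with large-subunit names and 34 with small-subunit names. All 84 passed the filter on low values (5 or more libraries with a value of 1 or above), which kept 13495 genes for testing. By their names, 77 are canonical subunit genes, 6 are paralogs of a canonical gene, and Rps19bp1 encodes a protein that binds Rps19.

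RNA of whole kidneys from male mice was sequenced in 28 libraries. The diabetic mice were db/db, homozygous for a leptin receptor mutation, and had lost 1 kidney by uninephrectomy (Unx). The other mice were db/m heterozygotes with both kidneys intact. There were 5 db/db Unx libraries at 35 weeks, 12 db/db Unx libraries at 26 weeks, 6 db/m intact libraries at 35 weeks and 5 db/m intact libraries at 26 weeks. Genotype and surgery changed together, so their effects cannot be told apart, and the labels name no batch that could separate handling from age. The leptin receptor mutation acts in the whole animal. All 15 proximal tubule markers passed the filter, with a summed value of 16847 to 29996 per library.

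Each ribosome holds a small subunit, which reads the mRNA, and a large subunit, which joins amino acids. Their proteins are needed in matched amounts, and most of their mRNAs begin with a tract of pyrimidines (C or T), the 5′ terminal oligopyrimidine motif, through which translation follows growth signals such as mTOR. The kidney cortex consists largely of proximal tubule, whose cells renew transporters and enzymes by steady protein synthesis.

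The start sites of genes that the results turn on are shown because this tract is the family's shared sequence feature. Each line gives 15 bases before and 15 bases from the start site, from the RefSeq promoter table (build GRCm38.p6), with the longest unbroken run of C and T near the start in capitals. Rps6 and Rpl38 have long runs, and Rpl22l1, Rpl36al, Rpl35a and Rplp0 are the members whose values set them apart from the rest.
Rps6: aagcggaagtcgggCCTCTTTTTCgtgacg
Rpl38: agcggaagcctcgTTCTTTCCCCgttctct
Rpl22l1: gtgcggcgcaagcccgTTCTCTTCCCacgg
Rpl36al: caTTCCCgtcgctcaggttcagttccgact
Rpl35a: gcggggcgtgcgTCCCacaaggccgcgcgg
Rplp0: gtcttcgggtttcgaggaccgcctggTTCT
The sites lie at chr4:86857353-86857382 on the minus strand for Rps6, chr11:114668565-114668594 on the plus strand for Rpl38, chr3:28805493-28805522 on the plus strand for Rpl22l1, chr12:69184053-69184082 on the minus strand for Rpl36al, chr16:33056438-33056467 on the plus strand for Rpl35a and chr5:115559452-115559481 on the plus strand for Rplp0. The runs are 10 bases in Rps6, Rpl38 and Rpl22l1, 5 in Rpl36al, 4 in Rpl35a and 7 in Rplp0. The run of Rplp0 goes on past the bases shown. GENCODE, another annotation, places the start 45 bases away for Rps6, 46 for Rpl38, 72 for Rpl22l1 and 16 for Rpl36al. For Rpl35a and Rplp0 it gives the same start. Which start the mRNA uses was not tested, here or for the counts that follow.

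An entry in the promoter table was found for 64 members. A run of at least 8 pyrimidines that reached within 15 bases of the start was present in 29 of them (45.3%), against 17.1% of the 10346 tested coding genes with an entry. The letters CTTTCC, on the coding strand within the same window, were present in 14.1% of the members and 1.3% of all those genes. Over 300 bases and on either strand, CCGGAAG, the core letters bound by ETS factors, was present in 35.9% of the members and 17.9% of all. TATAAA was present in 9.4% of the members and 7.3% of all. Between db/db Unx and db/m intact kidneys of 35 weeks, the median log2 difference was 0.16 for the 29 members with a long run and 0.17 for the 35 without.

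Levels were compared between members per kilobase of exon, since the deposited values are not scaled to length. The median member had 163 per kb. Rpl41, whose product is a very short peptide of the large subunit, stood highest at 939 per kb. Rps27l, Rps14, a small-subunit protein near the mRNA, Rplp0, the base of the stalk that recruits elongation factors, and Rpl13 followed, at 510, 465, 385 and 384 per kb. At the low end were Rpl5 at 27.8, Rps20 at 23.5, Rpl12 at 16.8, Rpl21 at 11.9 and Rpl3l at 1.44 per kb. The annotated transcripts of Rps20 and Rpl12 are long (3706 and 1242 bases), and that of Rpl5 is longer than that of Rpl12. The values per kb of these genes therefore depend on which transcript is made. Rpl21 has 55 near-identical pseudogenes, more than any other member.

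Ribosomal protein genes have many processed copies, and reads of a gene and its copies can be exchanged. At 95% identity over at least 90% of the coding sequence, 77 of the 84 members had at least 1 annotated pseudogene, 546 pseudogenes in all, of which 9 have a row of their own in the deposited table. The 38 members with 6 or more copies had a median of 163 per kb, and the 7 members with no copy had 172 per kb. How the authors' counting shared such reads is not given in the sources used here, and every level below carries this uncertainty.

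With age, ribosomal protein mRNA fell in db/m intact kidneys. Of the 84 members, 73 were lower at 35 than at 26 weeks and none was higher, where 4.68% of all tested genes were called lower and 2.73% higher (limma on log2(value + 1), adjusted p under 0.05). At an unadjusted p under 0.05 the members' counts were 79 lower and 0 higher, against 11% and 10.2% of all genes. All 84 log2 differences were below zero, with a median of -0.31, against 0.01 over all tested genes. The summed value of the members was 9573 ± 545 at 35 weeks (SD, n = 6) and 11665 ± 746 at 26 weeks (SD, n = 5). In 48 members every library of 35 weeks lay below every library of 26 weeks, against 3.49% of all genes, and in none did it lie above, against 1.5%. Since the tissue was bulk, fewer cells of a type and less RNA per cell cannot be told apart.

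Rpl24, a large-subunit protein at the bridge between the subunits, showed the pattern most plainly. In db/m intact kidneys at 35 weeks it had a lowest value of 103, a median of 106 and a highest of 110, against 126, 140, 138, 143 and 156 at 26 weeks. The ages did not overlap, and the log2 difference was -0.40 ± 0.06 (SE, adjusted p = 0.000135 by limma). Rps25, a small-subunit protein used by viral internal ribosome entry sites, had 123, 139 and 143 (lowest, median, highest) at 35 weeks, against 158, 178, 175, 172 and 197 at 26 weeks. Every library at 35 weeks was again below every library at 26 weeks, with a log2 difference of -0.36 ± 0.06. Rpl26, at the exit of the peptide tunnel, had a log2 difference of -0.36.

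Both subunits took part, with 42 of 50 large-subunit and 31 of 34 small-subunit names lower. All 7 proteins that line the tunnel exit were lower, with a median of -0.34. Of the small-subunit proteins at the mRNA channel and decoding site, 6 of 7 were lower. Of the 4 stalk proteins, Rplp1 and Rplp2 were lower, at -0.36 and -0.34, while Rplp0 was at -0.11 (adjusted p = 0.124) and Rpl12, at the stalk base, at -0.25 (adjusted p = 0.0819). Of the pair that binds the small ribosomal RNA of the large subunit and, when free, the p53 regulator Mdm2, Rpl11 was lower at -0.31 and Rpl5 was at -0.25 (adjusted p = 0.0548). Fau and Rack1, which encode ribosomal proteins outside the naming rule, were also lower.

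Short genes moved the same way. Among other genes, the median log2 difference between 35 and 26 weeks in db/m intact kidneys was -0.18 for the 1191 with exons under 1000 bases, of which 24.1% were lower. It was -0.06 from 1000 up to 2000 bases, 0.05 from 2000 up to 4000 bases and 0.09 from 4000 bases on. Of the members, 65 have exons under 1000 bases. Library by library, the members' mean deviation was lowest, at -0.34, in db/m intact replicate 05 at 35 weeks, where the short genes were also lowest at -0.20. It was highest, at 0.23, in db/m intact replicate 05 at 26 weeks, where the short genes were also highest at 0.16. With each library centred on its short genes, an alternative chosen after seeing the data, 34 members were lower and the median was -0.13. In that scale 1.16% of all genes were lower and 21.6% higher. In the values as deposited, nuclear genes of the respiratory chain, many of them short, were lower in 47 of 59 cases. Genes of the mitochondrial ribosome were lower in 29 of 78. In db/m intact kidneys the summed value of 5 erythroid markers was 282 to 996 at 35 weeks and 454 to 2154 at 26 weeks. It was highest of all libraries in replicate 05 of 26 weeks, the library with the highest members' mean. Other libraries of that group did not follow this order. Replicate 01 had 1205 and the group's lowest members' mean, at -0.05, while replicate 03 had 454 and a members' mean of 0.10. All 5 erythroid markers had log2 differences below zero, with a median of -0.92, and none passed the test. Of 7 lymphocyte and plasma cell markers tested, 1 was above zero and none passed, with a median of -0.17 and summed values of 23.8 to 39.1 at 35 weeks and 23.5 to 68.7 at 26 weeks. The part of these cells, of gene length, RNA quality or library preparation in the members' change was not tested.

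**Figure D1:**
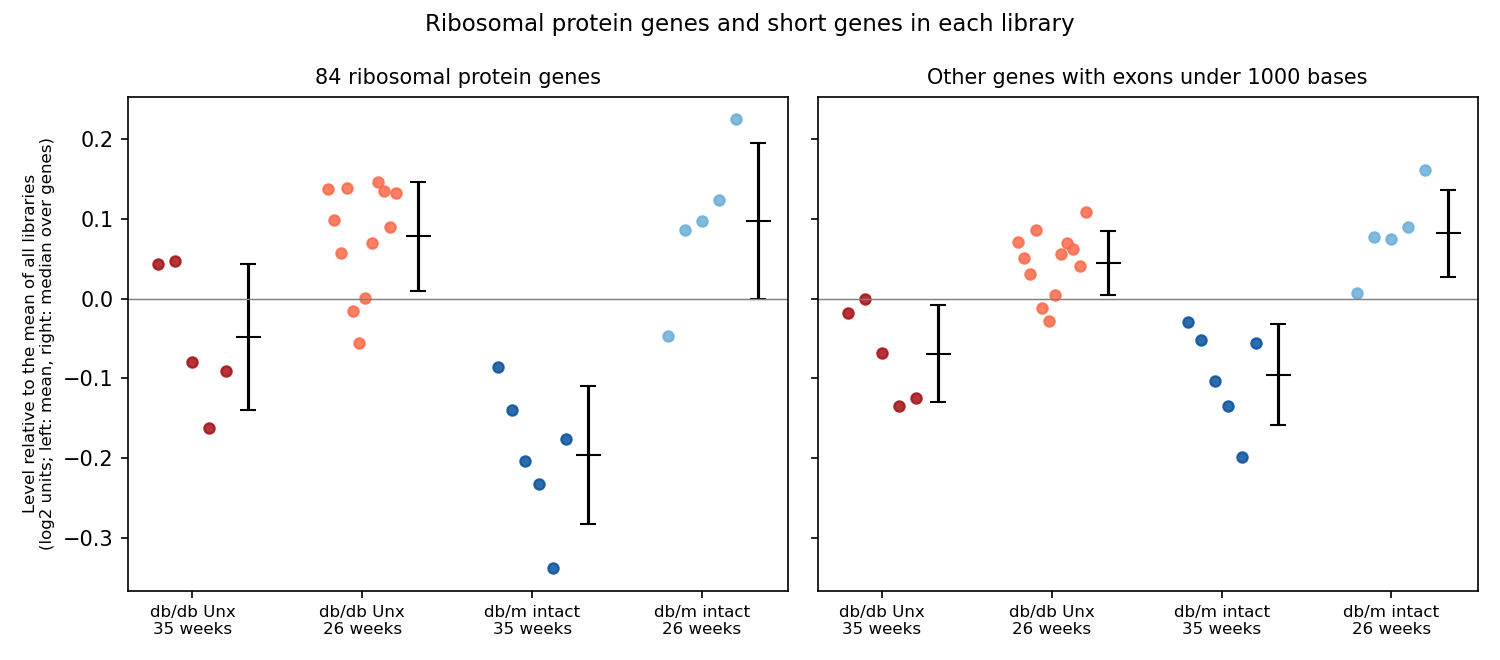
Level of the 84 ribosomal protein genes (left, mean over genes) and of other genes with exons under 1000 bases (right, median over genes) in each library, as log2 deviation from the mean of all libraries. Points are libraries, and the bar beside them is the group's mean with its SD. On both sides the db/m intact libraries of 35 weeks lie low, with a members' mean of -0.20, and those of 26 weeks high, with a members' mean of 0.10.

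**Figure D2:**
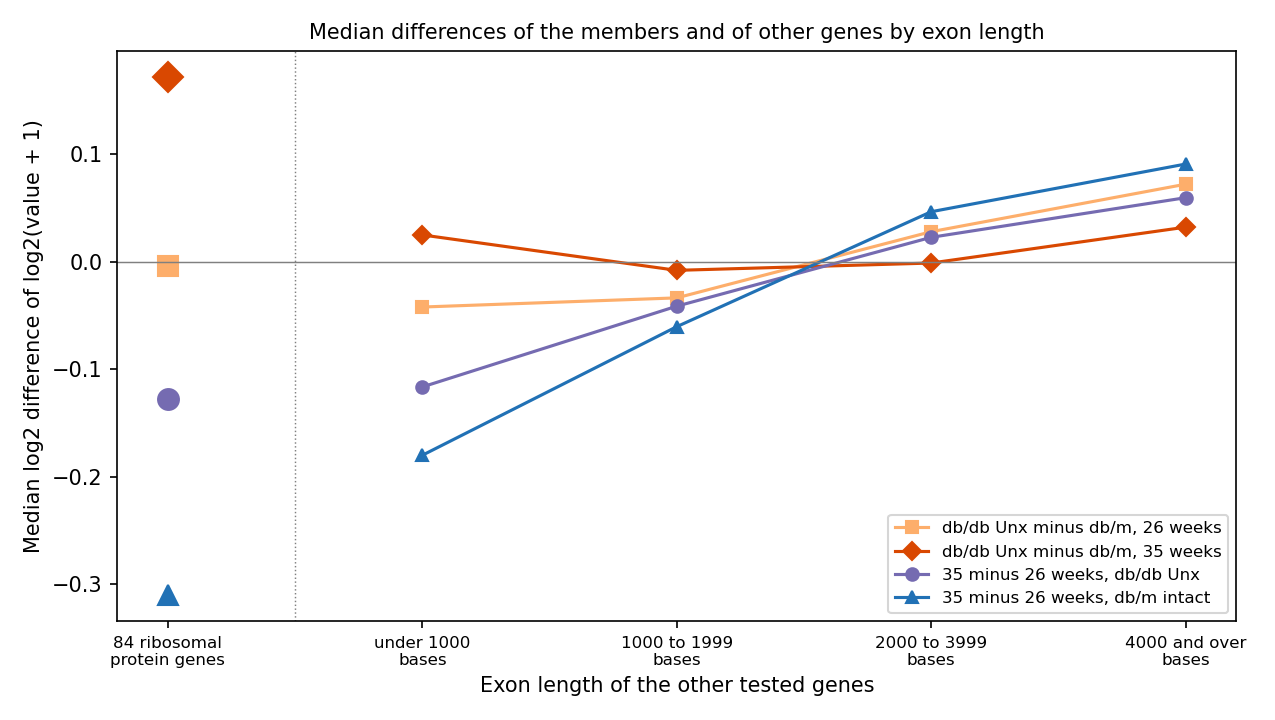
Median log2 difference of the 84 members (left of the dotted line) and of the other tested genes by exon length, for 4 comparisons. In both age comparisons the median climbs with length, in db/m intact kidneys to 0.09 from 4000 bases on, while the members lie at -0.31.

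In db/db Unx kidneys the same comparison of ages gave a smaller difference, and the members' means were lowest in 3 libraries of 35 weeks. At 35 weeks 18 members were lower than at 26 weeks and none was higher, against 6.14% of all genes lower and 5.16% higher. At an unadjusted p under 0.05 the counts were 49 lower and 0 higher, against 13.2% and 12.3% of all genes. The median log2 difference was -0.13. The ages did not overlap in 1 member, which was lower (0.86% of all genes lower and 0.482% higher). Rps25 fell by 0.21, Rps27l by 0.21, Rplp1 by 0.23 and Rpl13a, also a part of a complex that silences inflammatory mRNAs, by 0.19 on the log2 scale. Replicates 03, 05 and 06 of 35 weeks lay apart from the other libraries on the second principal component, at -42.8, -26.7 and -20.1, with the next library at -9.21. Their members' mean deviations were -0.08, -0.16 and -0.09, while replicates 01 and 02 stood at 0.04 and 0.05, within the range of the 26-week libraries (-0.06 to 0.15). Without those 3 libraries, an exclusion chosen after seeing the data, no member was called and the median was -0.04. The 3 have the lowest members' means of their group, so a smaller difference follows from the choice. With 2 libraries left at 35 weeks, this fit has little power to call a member. Short genes moved with the members here too. Among the 1191 other genes with exons under 1000 bases the median was -0.12, with 20.4% lower, beside 21.4% of the members. With each library centred on its short genes, no member was lower and 1 was higher, against 1.71% and 13.9% of all genes. The members' median was then -0.0137. Leaving out replicate 05 alone left 1 member lower, leaving out replicate 06 alone left 3, and leaving out replicate 02 alone gave 28. Shares of all genes called in these fits are not given, so the counts show only how far the calls depend on single libraries.

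The same 3 libraries carried the highest values of macrophage and injured tubule markers. The summed value of 15 macrophage and monocyte markers, all of which passed the filter, was 651, 566 and 552 in them, against 280 and 175 in replicates 01 and 02. It ranged from 129 to 252 in db/db Unx kidneys of 26 weeks, from 155 to 253 in db/m intact kidneys of 35 weeks and from 179 to 263 in db/m intact kidneys of 26 weeks. Of these markers, 9 of 15 were higher at 35 than at 26 weeks in db/db Unx kidneys. The summed value of 10 injured tubule markers was 7586, 9541 and 9017 in the 3 libraries, against 6623 and 5350 in replicates 01 and 02, and 5 of the 10 were higher at 35 weeks. Other groups of genes fell with age in db/db Unx kidneys, with 10 of 13 mitochondrially encoded genes, 39 of 59 nuclear genes of the respiratory chain and 20 of 78 genes of the mitochondrial ribosome lower and none of them higher. The part of these cells and of RNA quality in the members' values was not tested.

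Between db/db Unx and db/m intact kidneys, the family differed at 35 weeks. At that age 46 members were higher in db/db Unx kidneys and 2, Rpl22l1 and Rpl36al, were lower, against 15.9% and 16.4% of all tested genes. The median log2 difference was 0.17, against 0.01 over all genes, and 75 of 84 members were above zero. In 21 members every db/db Unx library lay above every db/m intact library, against 7.84% of all genes, and in 1, Rpl22l1, every one lay below, against 10.3%. The summed value of the members was 10644 ± 648 in db/db Unx kidneys (SD, n = 5) and 9573 ± 545 in db/m intact kidneys (SD, n = 6) at 35 weeks. At 26 weeks the sums were 11603 ± 514 (SD, n = 12) and 11665 ± 746 (SD, n = 5). Markers of other cells differed between the genotypes at both ages. Of 10 injured tubule markers, 10 were higher at 35 weeks, with a summed value of 5350 to 9541 in db/db Unx and 1153 to 1410 in db/m intact kidneys. Of 15 macrophage markers 8 were higher, of 9 tested fibroblast markers 6 were higher, and of 15 proximal tubule markers 8 were lower and 1 higher, with summed fibroblast values of 142 to 268 in db/db Unx and 105 to 127 in db/m intact kidneys. At 26 weeks, where the members' median was -0.0042, 8 of 10 injured tubule and 6 of 9 fibroblast markers were higher and none lower. Of 15 proximal tubule markers 9 were then lower and 2 higher. Of 15 macrophage markers 2 were lower and 1 higher, and of 7 lymphocyte and plasma cell markers 5 were lower. Of all genes 17.2% were higher and 17.7% lower at that age. The part of these cells in the differences of the family or of single members, at either age, was not tested.

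Rps24, a small-subunit protein whose gene is mutated in some patients with Diamond-Blackfan anaemia, had the smallest adjusted p among the members higher at 35 weeks. Its values were 91.6, 92.8, 86.5, 86.3 and 87.7 in db/db Unx kidneys, against 58.5, 67.9 and 76.7 (lowest, median, highest) in db/m intact kidneys. The groups did not overlap, and the log2 difference was 0.40 ± 0.08 (SE, adjusted p = 7.4e-05 by limma). Rpl23, a large-subunit protein that can bind Mdm2, had 120, 120, 105, 103 and 109 in db/db Unx kidneys, against 74.8, 88.5 and 99.6 in db/m intact kidneys. Again all db/db Unx libraries lay above, with a log2 difference of 0.33 ± 0.06. Rplp1, Rps10, Rps28 and Rpl38, the last needed in mouse embryos for translation of Hox mRNAs, were also among the members with the smallest adjusted p. Their log2 differences lay between 0.27 for Rps10 and 0.39 for Rpl38.

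By role, 6 of the 7 tunnel exit proteins were higher at 35 weeks, with a median of 0.21, and 5 of the 7 proteins at the mRNA channel and decoding site, with a median of 0.22. Rps6, the target of the S6 kinases, had a log2 difference of 0.10 (adjusted p = 0.229), and Rpsa, which also serves as a laminin receptor, one of 0.17 (adjusted p = 0.149). Rpl11 was higher by 0.22, while Rpl5 was at 0.07 (adjusted p = 0.588). Fau, which encodes a ribosomal protein fused to a ubiquitin-like protein, was higher by 0.22. Nuclear respiratory chain genes were higher in 29 of 59 cases and lower in 7. Short genes as a class had a median of 0.02, with 20.5% higher and 13.9% lower. With each library centred on its short genes, 45 members were higher and 3 lower, against 13.7% and 17.7% of all genes.

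The 35-week difference was measured against the db/m intact libraries that stood low in the comparison of ages. Without the 3 db/db Unx libraries that lay apart, an exclusion chosen after seeing the data, 48 members were higher, none was lower and the median was 0.26. These libraries have the lowest members' means of their group, so a higher median follows from the choice. The share of all genes called in that fit is not given. At 26 weeks, in the values as deposited, the family showed no common direction, with 5 members higher and 10 lower, against 17.2% and 17.7% of all genes, and a median of -0.0042 with 40 members above zero. This depended on the scaling: quantile normalization gave 25 members higher, 4 lower and a median of 0.09, where 17.2% of all genes were higher. Equal sums of the other nuclear genes gave 35 higher, 3 lower and a median of 0.10. Under that scaling 27.2% of all genes were higher and 12% lower, and their median was 0.11, moved by 0.09. At that age 1 member lay above without overlap and 3 below, against 5.11% and 7.68% of all genes. The difference between the ages in the effect of db/db Unx was tested directly. No member passed by limma (0.393% of all genes were called higher and 0.156% lower). At an unadjusted p under 0.05, 40 members were higher and none was lower, against 6.57% and 6.02% of all genes. Of the 84 members 79 were above zero, with a median of 0.17.

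**Figure D3:**
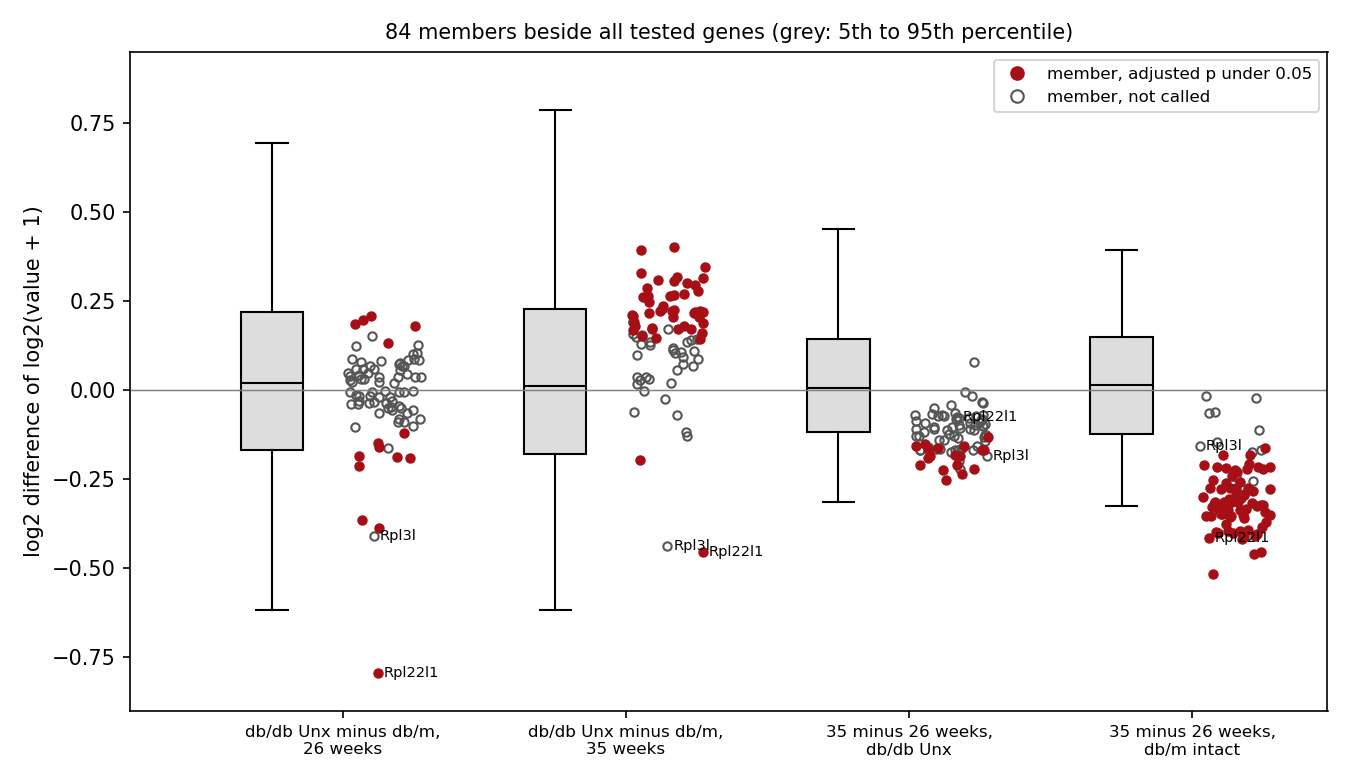
Log2 differences of the 84 members (points, filled where the adjusted p was under 0.05) beside all tested genes (grey box with the quartiles and whiskers at the 5th and 95th percentiles) in 4 comparisons. In the values as deposited, the members lie in a narrow band around zero at 26 weeks and around 0.17 at 35 weeks. Rpl22l1 lies below the band at both ages. The members lie around -0.13 with age in db/db Unx kidneys and around -0.31 with age in db/m intact kidneys. Under 2 other scalings the members' 26-week medians were 0.09 and 0.10, where those of all genes were 0.0049 and 0.11.

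Some members left the family where db/db Unx kidneys were set against db/m intact ones. Rpl22l1, the paralog of Rpl22 and like it an RNA-binding protein of the large subunit, was the most different. It had 27.6, 27.8, 20.3, 20.2 and 20.4 in db/db Unx kidneys of 35 weeks, against 29.4, 31.8 and 35.8 (lowest, median, highest) in db/m intact kidneys of that age. At 26 weeks it had 22.1, 23.5 and 31.7 in db/db Unx kidneys, against 39.0, 45.6, 41.0, 36.4 and 54.8 in db/m intact kidneys. The groups did not overlap at either age. The log2 difference was -0.80 ± 0.09 at 26 weeks (SE, adjusted p = 7.84e-09 by limma) and -0.46 ± 0.11 at 35 weeks (adjusted p = 0.000803). Without the 3 libraries that lay apart, the 35-week difference was -0.20 (adjusted p = 0.35).

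Rpl36al, the autosomal paralog of the X-linked Rpl36a, followed. It had 174, 185, 156, 145 and 145 in db/db Unx kidneys of 35 weeks, against 163, 185 and 203 in db/m intact kidneys, and these ranges overlapped. At 26 weeks the values were 164, 184 and 198 in db/db Unx kidneys, against 215, 226, 220, 256 and 248 in db/m intact kidneys, with no overlap. The log2 difference was -0.37 ± 0.06 at 26 weeks (adjusted p = 3.29e-06 by limma) and -0.20 ± 0.07 at 35 weeks (adjusted p = 0.0197). Without the 3 libraries, which were the lowest here too, the 35-week difference was -0.04 (adjusted p = 0.83 by limma), with the same limit. Rpl35a, a large-subunit protein mutated in some patients with Diamond-Blackfan anaemia, had 87.0, 97.5 and 104 in db/db Unx kidneys of 26 weeks, against 111, 124, 124, 130 and 146 in db/m intact kidneys. Its groups were apart at 26 weeks, at -0.39 ± 0.06, whereas at 35 weeks the difference was -0.13 ± 0.07 (adjusted p = 0.154).

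The paralogs and their namesakes can be told apart by sequence to different degrees. Aligned over the coding sequence, Rpl22l1 and Rpl22 share 67.5% of bases, Rpl36al and Rpl36a 87.7%, and Rps27l and Rps27 76.2%, while Rps27rt and Rps27 are identical, so that reads from the coding part of the last pair cannot be assigned. A stretch of 60 coding bases from the GENCODE transcripts is shown for the pairs that changed, with bases that differ within the pair in capitals.
Rpl22l1: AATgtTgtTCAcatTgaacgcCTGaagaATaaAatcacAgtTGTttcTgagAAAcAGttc
Rpl22: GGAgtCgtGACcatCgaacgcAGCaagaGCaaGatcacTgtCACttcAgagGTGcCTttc
Rpl36al: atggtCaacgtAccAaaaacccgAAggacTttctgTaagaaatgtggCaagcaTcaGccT
Rpl36a: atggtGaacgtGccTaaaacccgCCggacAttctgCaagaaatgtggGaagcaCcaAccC
The Rpl22l1 and Rpl22 stretches differ at 24 of 60 bases and those of Rpl36al and Rpl36a at 11 of 60. The genes lie at chr3:28805436-28807424 (plus strand), chr4:152325742-152334071 (plus strand), chr12:69182731-69184083 (minus strand) and chrX:134585654-134588062 (plus strand) in GRCm38.

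A ratio of 2 genes in the same library does not depend on how libraries were scaled. The ratio of Rpl22l1 to Rpl22 was 0.577 ± 0.054 in db/db Unx (SD, n = 5) and 0.871 ± 0.081 in db/m intact kidneys (SD, n = 6) at 35 weeks. At 26 weeks it was 0.523 ± 0.068 (SD, n = 12) and 0.934 ± 0.080 (SD, n = 5). At both ages the highest db/db Unx library, at 0.629 and 0.667, lay below the lowest db/m intact library, at 0.796 and 0.835. The ratio of Rpl36al to Rpl36a was 4.94 ± 0.10 in db/db Unx and 6.62 ± 0.35 in db/m intact kidneys at 35 weeks, and 4.82 ± 0.32 and 6.05 ± 0.33 at 26 weeks, again without overlap. For both ratios an exact two-sided permutation test on the log2 ratio gave p = 0.000323 at 26 weeks and p = 0.00433 at 35 weeks, the smallest values these group sizes allow. Benjamini-Hochberg adjustment over the 12 tests of 6 pairs at 2 ages gave 0.00194 and 0.013. The namesakes also enter these ratios. Log2 differences of Rpl36a were 0.22 at 35 weeks and -0.04 at 26 weeks, beside -0.20 and -0.37 for Rpl36al. Those of Rpl22 were 0.12 and 0.02, beside -0.46 and -0.80 for Rpl22l1.

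The other 4 pairs missed the threshold at both ages, with exact permutation p between 0.0643 and 0.807. For Rps27l, a p53 target in human cells, the log2 ratio to Rps27 differed by -0.01 at 26 weeks and -0.07 at 35 weeks. Rpl7l1, a factor of ribosome assembly, differed from Rpl7 by -0.11 and -0.12. Rpl3l, which replaces Rpl3 in heart and skeletal muscle, had low values in kidney, at 0.695 to 2.22 in db/db Unx and 0.864 to 3.93 in db/m intact kidneys of 35 weeks.

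Rplp0 stood out in the other direction at 26 weeks. In db/db Unx kidneys of 35 weeks it had 533, 534, 540, 471 and 525, against 429, 452 and 483 (lowest, median, highest) in db/m intact kidneys. At 26 weeks it had 536, 572 and 614 in db/db Unx kidneys, against 469, 510, 503, 486 and 499 in db/m intact kidneys. At 35 weeks only replicate 05 of db/db Unx fell within the db/m intact range, and at 26 weeks the groups did not overlap. The log2 difference was 0.21 ± 0.04 at 26 weeks (SE, adjusted p = 5.5e-05 by limma). At 35 weeks it was 0.19 ± 0.04 (adjusted p = 0.00107 by limma), near the median of 0.17 over all members. Rplp1, Rps15, Rps2 and Rps18 were also higher at 26 weeks, by 0.18, 0.20, 0.13 and 0.18. Without db/m intact replicate 01 of 26 weeks, Rplp0 alone of these 5 passed. The other members lower at 26 weeks were Rpl7l1, Rpl10, Rpl17, Rpl29, Rpl3, Rps15a and Rpl15, between -0.21 and -0.12. Without db/m intact replicate 05 of 26 weeks the count of lower members was 5, in a fit whose share of all genes called is not given.

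With each library centred on the members, an alternative chosen after seeing the data that compares each member with the rest of the family, Rpl22l1, Rpl36al and Rpl35a were lower at both ages. Their log2 differences in that scale were -0.80, -0.37 and -0.39 at 26 weeks and -0.62, -0.36 and -0.29 at 35 weeks. Rpl7l1, Rpl10, Rpl29, Rpl15 and Rpl7 were also lower at both ages, at -0.21, -0.19, -0.15, -0.12 and -0.11 at 26 weeks and at -0.28, -0.23, -0.19, -0.15 and -0.17 at 35 weeks. In the same scale Rplp1, Rps15 and Rps16 were higher at both ages and Rplp0 at 26 weeks only, with 0.02 at 35 weeks (adjusted p = 0.706).

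**Figure D4:**
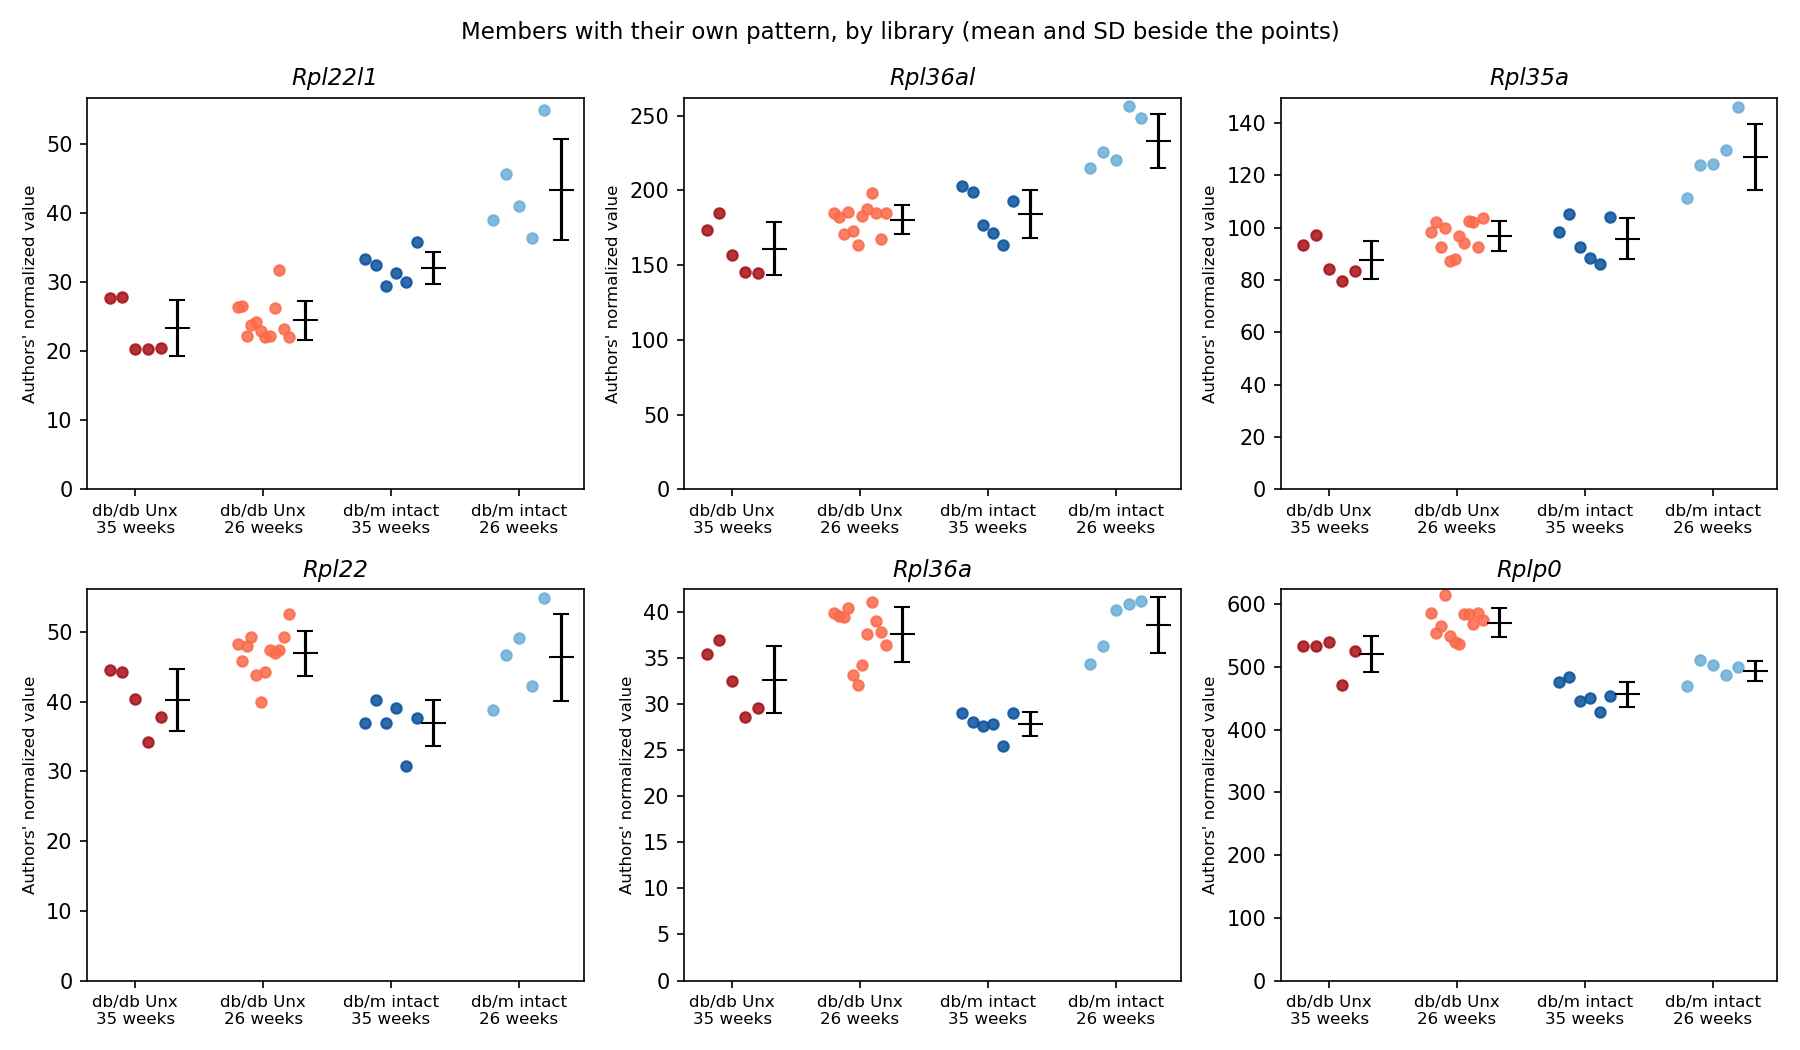
Authors' normalized value per library of 3 members that were lower in db/db Unx kidneys at 26 weeks (Rpl22l1, Rpl36al, Rpl35a), of the namesakes Rpl22 and Rpl36a, and of Rplp0. Points are libraries, and the bar beside them is the mean with its SD. Rpl22l1 lies at 20.2 to 27.8 in db/db Unx and at 29.4 to 35.8 in db/m intact kidneys of 35 weeks, while Rplp0 is higher in db/db Unx kidneys of 26 weeks, at 536 to 614, than in db/m intact kidneys, at 469 to 510.

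Ribosome biogenesis genes were called in both directions. Of 46 ribosome biogenesis genes, 3 were higher and 2 lower in db/db Unx than in db/m intact kidneys at 35 weeks, and 3 were higher and 3 lower at 26 weeks. Of all genes, 15.9% were higher and 16.4% lower at 35 weeks, and 17.2% and 17.7% at 26 weeks. Utp20, of the machinery that processes small-subunit RNA, was higher by 1.55 at 35 weeks and by 1.62 at 26 weeks. Eif6, which keeps the subunits apart until the large one is mature, was higher by 0.50 and 0.36. Nhp2, of the particles that modify ribosomal RNA, was lower, at -0.59 and -0.73, while its partner Nop10 was higher at 35 weeks by 0.26. Of 15 genes of RNA polymerase I, which transcribes ribosomal RNA, 2 were lower and none higher at 35 weeks, among them Polr1e at -0.50.

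Among 25 elongation factors and other genes with a terminal oligopyrimidine tract, 8 were higher and 3 lower at 35 weeks, where 15.9% of all genes were higher and 16.4% lower. At 26 weeks none was higher and 5 were lower, where 17.2% and 17.7% of all genes were. Their median was 0.08 at 35 weeks and -0.04 at 26 weeks. Eif3m and Eif3k, subunits of the initiation factor eIF3, were higher at 35 weeks by 0.33 and 0.28, while Nap1l1, a histone chaperone, was lower at both ages, at -0.51 and -0.46. Of 25 initiation factors, 1 was higher and 3 lower at 35 weeks, and 1 was higher and 4 lower at 26 weeks. Eif4g3, a scaffold of the cap-binding complex, was at -0.67 and -0.62, and Eif3c was higher by 0.22 and 0.19. Of 26 genes of growth signalling, 5 were higher and 2 lower at 35 weeks, and 5 were higher and 3 lower at 26 weeks. Mtor, the kinase at the head of this pathway, was lower by log2 differences of -0.96 at 35 weeks and -0.91 at 26 weeks, and Rps6ka1, a kinase of the ERK pathway that phosphorylates Rps6, was higher by 0.83 and 0.75. Eif4ebp1, which blocks cap binding until mTOR phosphorylates it, was higher at 35 weeks by 0.53.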

How the data were processed

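Bulk RNA-seq libraries of kidney were made with TRIzol and RNeasy extraction and Nextera XT, per the labels. The submitters' processing notes name DRAGEN and the builds GRCm38 and mm10. The authors deposited normalized values per gene, a signal without length scaling whose method is not given in the sources used here; library sums ran from 896873 to 1018934. About 90% of low values (89.1% to 91.8% per library) lay on multiples of a step (tolerance 0.1), from which library sizes of 21.8 to 30.8 M counts were estimated. The filter, the pseudocount of 1 and limma 3.58.1 (R 4.3.3; trend, robust; 4 group means; Benjamini-Hochberg over all genes) were applied to all 28 libraries, and fold differences on this scale understate changes of low genes. Symbols and exon lengths (shortest best-ranked coding transcript) came from GENCODE M21, which matched 14842 identifiers. Copies were sought with blastn 2.17.0. The fitting was tested on simulated data. Members and gene lists were chosen with earlier results of these data known. Named members were those with the smallest adjusted p (up to 8 per direction between genotypes, 4 between ages), all paralogs, the 5 highest and 5 lowest per kb and 5 landmarks. A few genes that this rule names are not reported here. No label says that libraries came from separate animals, so p-values measure the spread between libraries. Replicate numbers did not pair libraries.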

Additional observations from a re-analysis of the deposited data

Results flagged for a closer look

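In 87 groups of 5 or 6 libraries checked for a single outlying library, 2 were flagged. The checks share the same libraries and are not independent of each other. Rplp0 was lowest in db/db Unx replicate 05 at 35 weeks, at 470.51, with the nearest other library at 525. Rpl5 was lowest in db/m intact replicate 05 at 35 weeks, at 40.5, with the nearest other library at 49.7. Both libraries also had the lowest mean over all members in their group.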

How the results depend on the processing

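The members' counts and medians were recomputed under other scalings, filters, pseudocounts and fits. Quantile normalization gave 25 higher, 4 lower and a median of 0.0897 in the 26-week comparison of genotypes, and 1 lower at 35 weeks. Equal sums of the other nuclear genes moved the median of all genes by 0.09 at 26 weeks. They gave 35 higher, 3 lower and a median of 0.10 at that age, against 27.2% and 12% of all genes. They also gave 1 lower at 35 weeks and 6 lower with age in db/db Unx, against 12.2% and 4.71% of all genes. Fitting only the groups compared gave 1 lower at 35 weeks, and a fit without trend and robust moderation 8 lower with age in db/db Unx. Centring on short genes moved the median of all genes by 0.11 and 0.18 in the age comparisons of db/db Unx and db/m intact. It gave 12 higher at 26 weeks, where 19.3% of all genes were. With age in db/db Unx it gave 1 higher, 0 lower and a median of -0.0137, against 13.9% of all genes higher and 1.71% lower. With age in db/m intact it gave 34 lower and a median of -0.13, against 1.16% of all genes lower and 21.6% higher. Centring on the members gave 9 higher, 11 lower and a median of 0.0068 at 35 weeks. Of all genes, 8.17% were then higher and 29.2% lower. With age in db/db Unx it gave 1 higher, 0 lower and 0.0032, where 13.4% of all genes were higher and 1.24% lower. With age in db/m intact it gave 10 higher, 3 lower and -0.0160, where 47.4% of all genes were higher and 0.156% lower. The interaction median was 0.0100. These small medians follow from the construction of this scaling. Leaving out db/db Unx replicates 03, 05 and 06 of 35 weeks was also chosen after seeing the data. It gave 0 lower and a median of 0.26 at 35 weeks, and 0 lower and -0.0411 with age in db/db Unx. For the other changes the cause was not tested. Leaving out 1 library at a time gave 1 to 6 higher and 5 to 11 lower at 26 weeks, 31 to 48 higher and 1 to 2 lower at 35 weeks, 1 to 28 lower with age in db/db Unx, 58 to 75 lower with age in db/m intact, and 0 to 1 higher for the interaction. Same-numbered libraries of different groups had correlations of -0.135 to 0.084, so the numbers do not pair them, and 1 of 20 same-numbered pairs correlated best with each other. With the replicate number as a block, 1 member was higher at 26 weeks and 0 were lower with age in db/db Unx. For the fits with libraries left out or with this block, the share of all genes called is not given. Depth limits Rpl3l, the lowest member.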
